A study of Mus musculus with 8 samples.

Results

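B cells depend on a small group of receptors and ligands for survival, and 7 of these genes were followed here through the immune cells of the mouse brain. They were selected by symbol from the 32285 genes of the count matrices: Tnfrsf13c (the BAFF receptor), Tnfrsf13b (TACI), Tnfrsf17 (BCMA), Cd40, Cxcr5, and the ligands Tnfsf13b (BAFF) and Tnfsf13 (APRIL). All 7 had unique molecular identifiers (UMIs, each standing for 1 captured transcript) in the cells kept, as did 23092 genes in all. The study asked how intestinal inflammation changes brain immune cells in a model of Alzheimer's disease. It made 8 single-cell libraries, 1 for each combination of genotype (WT C57BL/6J, or APPNL-G-F, here APP) and treatment, from mice 16 weeks old. Controls drank water. Acute colitis followed 2% dextran sulfate sodium (DSS) in the drinking water for a week, chronic colitis followed 3 rounds of 5 days each on 2% DSS and on water, and food allergy followed sensitization and feeding with ovalbumin. APPNL-G-F mice carry App knocked in with the Swedish, Iberian and Arctic mutations, so the allele is driven by the mouse App promoter in every tissue. In every group the brain parenchyma was taken after saline perfusion and CD45.2+ leukocytes were sorted. Each library pooled hashtagged samples that the labels do not tie to mice, so a library was the unit of replication, p-values measured the spread between libraries, and a group of 1 genotype and 1 treatment had no replicate.

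BAFF and APRIL are trimeric ligands of the tumour necrosis factor family that myeloid and stromal cells make. BAFF alone binds the BAFF receptor, which keeps transitional and mature B cells alive through the alternative NF-kB pathway, whereas both ligands bind TACI and BCMA, and BCMA sustains plasma cells. CD40 is the receptor through which T cells license B cells and dendritic cells, and CXCR5 guides mature B cells to follicles along the chemokine CXCL13.

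The 250 bases before the RefSeq start of the 3 BAFF and APRIL receptor genes (assembly GRCm38.p6) are printed since the stage comparisons turn on these receptors. Capitals mark matches, on either strand, to the NF-kB letters (GGGA, any 4 bases, then CC), which 17.6% of 32851 RefSeq promoter windows of this length held, or to the ETS letters GAGGAA, which 23.3% held. A match is a string of letters and not a measured site. Tnfrsf13b held the first match and Tnfrsf17 the second, here read as TTCCTC. Tnfrsf13c held neither, and none of the 3 held the EBF letters (TCCC, any 2 bases, then GGGA), which 0.779% of all windows held.
Tnfrsf13c, chr15:82224381-82224630, minus strand: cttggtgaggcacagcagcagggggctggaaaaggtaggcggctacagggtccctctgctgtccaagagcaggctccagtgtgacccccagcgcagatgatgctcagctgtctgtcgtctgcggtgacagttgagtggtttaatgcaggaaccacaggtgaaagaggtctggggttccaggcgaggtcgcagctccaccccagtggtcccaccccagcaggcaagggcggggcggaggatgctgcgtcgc
Tnfrsf13b, chr11:61126505-61126754, plus strand: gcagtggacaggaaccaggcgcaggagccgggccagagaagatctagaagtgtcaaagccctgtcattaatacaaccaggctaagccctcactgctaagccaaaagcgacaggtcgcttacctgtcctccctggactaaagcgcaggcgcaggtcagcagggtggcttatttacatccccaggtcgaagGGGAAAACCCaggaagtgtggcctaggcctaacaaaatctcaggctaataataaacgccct
Tnfrsf17, chr16:11313559-11313808, plus strand: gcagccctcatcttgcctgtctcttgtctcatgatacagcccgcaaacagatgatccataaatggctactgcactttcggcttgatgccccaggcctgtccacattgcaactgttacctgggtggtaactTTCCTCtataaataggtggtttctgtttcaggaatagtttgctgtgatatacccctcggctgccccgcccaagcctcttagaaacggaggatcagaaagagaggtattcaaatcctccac

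After cell calling 50078 cells were kept, 4874 to 7199 per library, with 25617519 to 54618574 UMIs per library and a median of 2778 to 4130 UMIs per cell. Libraries shared at most 1.25% of their cell barcodes. Cells were assigned to gates from marker lists that hold none of the 7 genes. B lineage cells (Cd79a, Pax5 and others) were divided into 3591 developing and 5881 mature cells by which stage list (Rag1 and Dntt, or Ighd and Fcer2a, among others) they expressed more of, and 2286 of these 9472 cells were decided by a margin of 1 marker. Of the developing cells, 737 with at least 2 UMIs of surrogate light chain genes or Dntt were called early and 2854 late. This division depends on depth, and the median was 8565 UMIs in early and 2292.5 in late cells. The part of depth in the early to late differences was not tested. There were also 967 plasma cells and 14578 myeloid cells. B lineage markers summed to 57.7 to 144 CPM (counts per 1000000 UMIs of a gate in a library) in the myeloid gate of the 8 libraries, against at least 3634 in early developing B cells. Tmem119 and P2ry12, which define microglia, stood at 49.9 and 58.5 CPM in the 1731 macrophages without Tnfrsf17.

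Tnfrsf13c, Cd40 and Cxcr5 all rose along the B lineage toward the mature stage, but their starting points differed. Tnfrsf13c (chr15:82221743-82224369, GRCm38, minus strand) was already present in early developing B cells at 36.1 to 63.4 CPM (median 45.9, 8 libraries). It stood at 138 to 383 CPM in late developing cells (median 168) and 458 to 760 CPM in mature cells (median 613). The 3 ranges did not overlap, and in late cells the library of APP acute colitis lay far above the rest, whose highest value was 189 CPM. Late cells exceeded early cells by 1.86 ± 0.10 on the log2 scale (SE, edgeR adjusted p = 5.39e-11) and mature cells exceeded all developing cells by 2.45 ± 0.11 (edgeR adjusted p = 2.68e-10). In mature B cells 67.9% of cells had a Tnfrsf13c UMI at a median depth of 2472 UMIs. The share was 54.7% when cells with at least 1500 UMIs were thinned to 1500 and the rest left out. In CD8 T cells, which should lack the receptor and had a median depth of 3043 UMIs, these shares were 1.004% and 0.466%.

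Cd40 (chr2:165055627-165072948, plus strand) was barely detected in early developing B cells, at 1.03 to 2.88 CPM (median 1.67). Late developing cells held 23.2 to 82.5 CPM (median 29.5) and mature cells 131 to 217 CPM (median 181), again with no overlap. The differences were 4.05 ± 0.23 from early to late (edgeR adjusted p = 5.27e-11) and 3.31 ± 0.15 from developing to mature cells (edgeR adjusted p = 1.95e-10), both log2 with SE. The library of APP acute colitis was again the highest among late developing cells. Among cells with at least 1500 UMIs, thinned to 1500, 22.9% of mature B cells and 0.0605% of CD8 T cells had a Cd40 UMI.

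Cxcr5 (chr9:44511787-44561877, minus strand) was nearly confined to the mature stage within the B lineage. It stood at 0 to 2.49 CPM in early cells, 0 to 5.35 CPM in late cells and 68.9 to 93.3 CPM in mature cells (median 74.2). Mature cells exceeded developing cells by 5.31 ± 0.17 on the log2 scale (SE, edgeR adjusted p = 1.90e-11). The only transcripts in early cells were 13 UMIs, and the gene did not pass the low-count filter of the early to late comparison. CD4 T cells, whose follicular helper subset uses the receptor, held 2.41 to 19.8 CPM. The gene overlaps Bcl9l on the other strand.

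Tnfrsf13b (chr11:61126755-61149372, plus strand) had the smallest differences of the receptors tested along the B lineage. Its levels were 63.1 to 120 CPM in early cells (median 99.1), 98.1 to 176 CPM in late cells (median 133) and 174 to 247 CPM in mature cells (median 224), so that early and late cells overlapped. Mature cells held 2.00-fold the level of developing cells (log2 SE 0.06, edgeR adjusted p = 8.37e-09). The early to late difference was smaller (0.34 ± 0.12, edgeR adjusted p = 0.0215). It was lost without WT food allergy (0.23), APP control (0.31) or APP food allergy (0.32), and it turned to -0.20 when cells were called by the UMI cutoff alone.

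**Figure D1:**
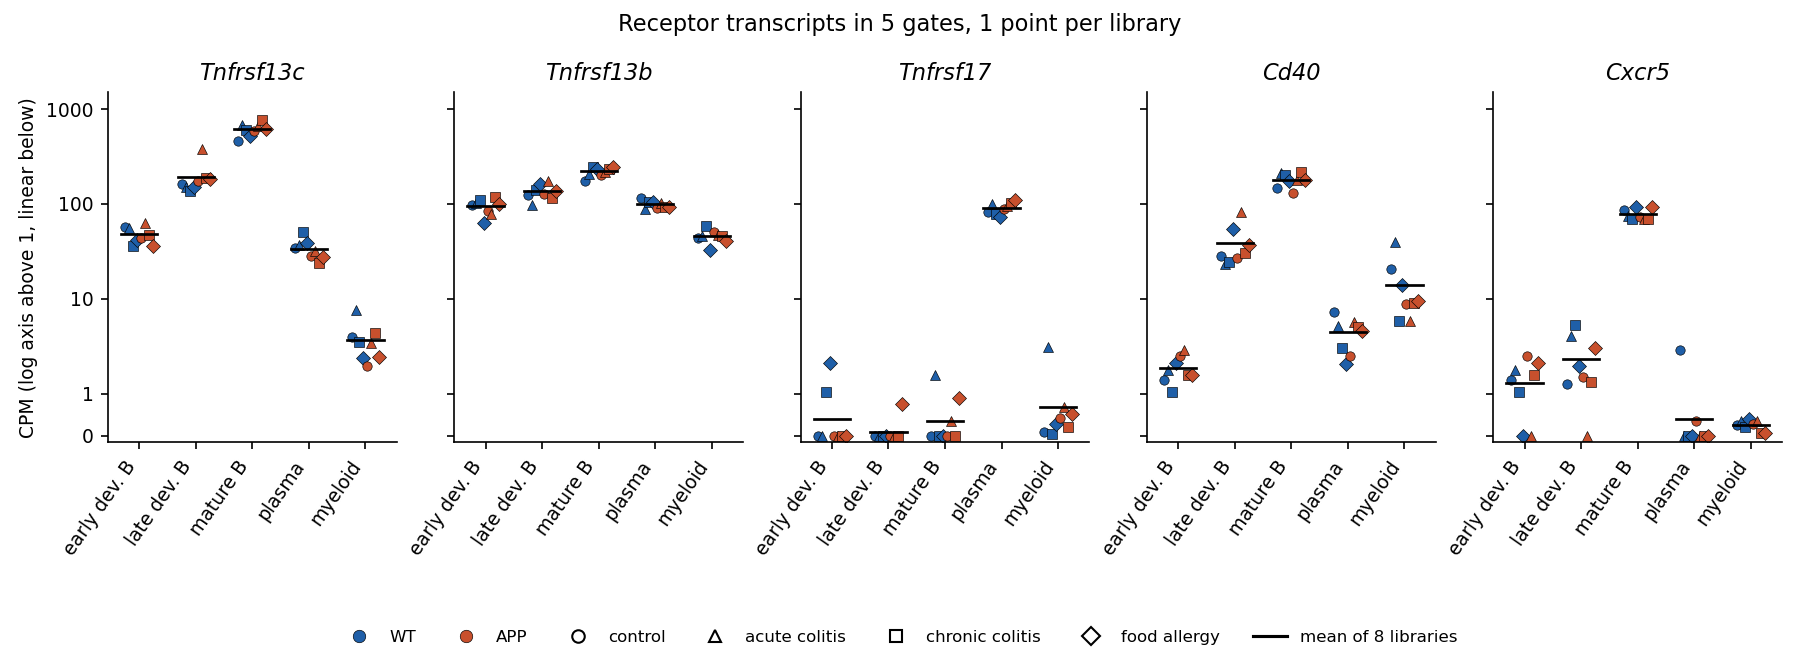
CPM of the 5 receptor genes (log axis above 1, linear below) in 5 gates, with 1 point for each of the 8 libraries and a line at their mean. Tnfrsf13c, Cd40 and Cxcr5 are highest in mature B cells, Tnfrsf17 in plasma cells, and Tnfrsf13b is present in all 5 gates, the myeloid gate included.

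Of the 7 genes, 3 passed the low-count filter from early to late and 4 from developing to mature, and all of these were higher in the later stage. Among all genes tested, 56.7% were called in the first comparison, 29.8% as higher in late cells, and 64.5% in the second, 33.9% as higher in mature cells. The filter admits a gene that is high in either gate, so Cxcr5 entered through mature cells alone. Likewise Cd40 entered the early to late comparison through late cells alone, so the filter set the direction of both.

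Tnfrsf17 (chr16:11313812-11320074, plus strand) marked the step to plasma cells. It stood at 72.8 to 111 CPM in plasma cells (median 91.2) and at 0 to 1.56 CPM in mature B cells, where 8 UMIs were found in 5881 cells. The edgeR difference was 9.19 ± 0.27 on the log2 scale (SE, adjusted p = 3.61e-10), a size that depends on those few UMIs. In plasma cells, at a median depth of 19085 UMIs, 58.9% had a Tnfrsf17 UMI. Among those with at least 1500 UMIs, thinned to 1500, the share was 11.4%. None of 4083 CD8 T cells had one, which allows a share of up to 0.0735% of cells with a UMI, not of cells expressing the gene.

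The other receptors were compared with the same plasma cells, and here the scaling mattered. Immunoglobulin genes took 54.4 to 62.6% of plasma cell UMIs and 2.07 to 2.98% of those of mature B cells. With TMM factors, which align the bulk of genes, Tnfrsf13c was lower in plasma cells (log2 -2.42 ± 0.13 SE, edgeR adjusted p = 2.80e-08), Cd40 was lower (-3.54 ± 0.13, edgeR adjusted p = 1.17e-09) and Cxcr5 was lower (-6.19 ± 0.38, edgeR adjusted p = 6.14e-08). Tnfrsf13b was higher (0.63 ± 0.06, edgeR adjusted p = 4.30e-06). With library size alone the first 3 stayed lower and Tnfrsf17 stayed higher (7.49), but Tnfrsf13b reversed to -1.15 (edgeR adjusted p = 6.46e-07). The median of all genes moved from -0.11 to -1.88 between these scalings, so Tnfrsf13b lay above that median under both. The share of calls that were higher in plasma cells moved with it, from 46.8% to 6.52%.

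Levels were also set against UMIs without immunoglobulin genes. Tnfrsf13b then stood at 210 to 261 CPM in plasma cells (median 249) and 178 to 253 CPM in mature B cells (median 230), with overlapping ranges. Tnfrsf13c stood at 61.4 to 126 CPM in plasma cells against 468 to 780 CPM in mature cells, which did not overlap. All 5 receptor genes passed the low-count filter in this comparison, with 2 higher and 3 lower with TMM factors, where 63.7% of all genes tested were called, 29.8% as higher and 33.9% as lower. Tnfrsf17 passed the filter through plasma cells alone and Cxcr5, with 5 UMIs in plasma cells, through mature cells alone, so the filter set their direction.

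**Figure D2:**
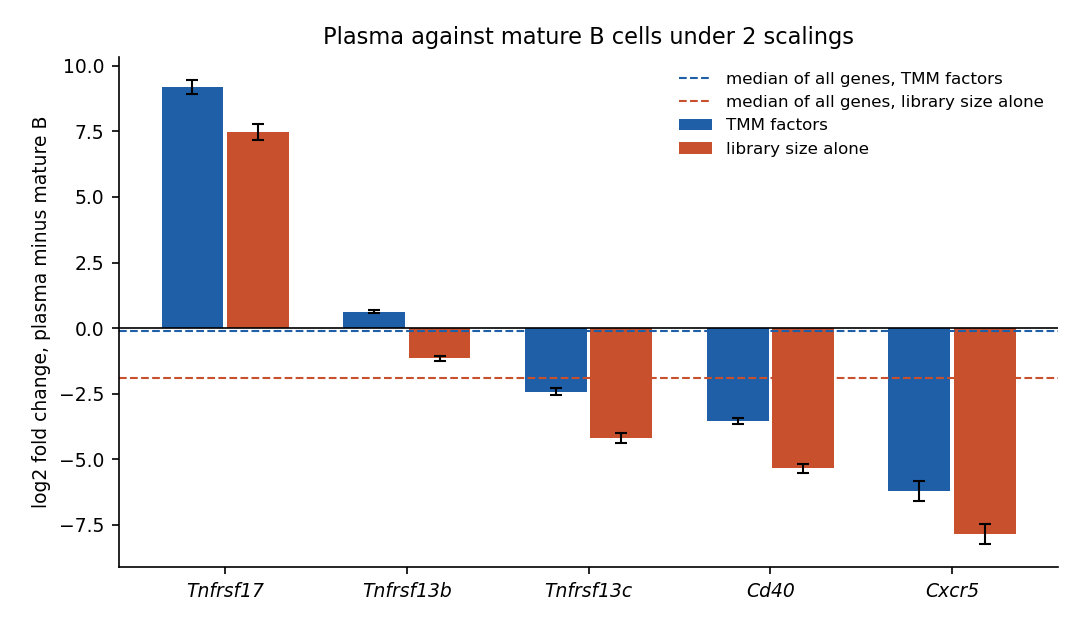
Log2 fold change of plasma against mature B cells for the 5 receptor genes from edgeR fits over 8 libraries (bars, with SE), with TMM factors or library size alone, and the median of all genes under each scaling (dashed lines). Tnfrsf13b changes sign between the scalings, whereas the other genes keep their direction.

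Plasma cells were divided by the heavy chain that made up over 50% of at least 20 heavy-chain UMIs, a division made after Igha was seen among the genes most like Tnfrsf17. Without immunoglobulin genes in the total, Tnfrsf17 stood at 317 CPM in 215 IgA cells (95% counting interval 290 to 345), 240 CPM in 577 IgM cells (225.9 to 255.7) and 140 CPM in 121 IgG cells (118 to 164). The intervals did not overlap and cover counting error only. In every one of the 7 libraries with IgG cells the IgG value was the lowest of the 3. In the WT libraries it rested on almost no transcripts. WT acute colitis had 3 IgG cells with 2 Tnfrsf17 UMIs, and WT chronic colitis 8 cells with 3 UMIs. WT food allergy had 18 cells with 0 UMIs. The IgA value was above the IgM value in 7 of 8 libraries, the exception being APP food allergy at 296 against 388 CPM. Tnfrsf13b varied less, at 284 CPM in IgA, 248 CPM in IgM and 226 CPM in IgG cells. Tnfrsf13c had another order, with 95.6 CPM in IgM, 73.7 CPM in IgG and 57.5 CPM in IgA cells. No test was made of these differences.

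Both plasma cell receptors were often found in the same cells. Tnfrsf13b was detected in 85.3% of plasma cells with a Tnfrsf17 UMI and in 54.9% of those without one. The first cells were deeper (median 22795.5 against 9243 UMIs), and the part of depth in this difference was not tested.

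Outside the B lineage the receptors differed in the gates that held them. Tnfrsf13b was the broadest, with 32.5 to 58.1 CPM in the myeloid gate, where its range lay below that of every B lineage gate. Within it, plasmacytoid dendritic cells held 155 to 239 CPM (median 165), which overlapped mature B cells, and monocytes held 44.8 to 84.6 CPM. Cd40 was highest in migratory dendritic cells, at 185 to 850 CPM in only 102 cells, a range that overlapped that of mature B cells. Tnfrsf13c and Cxcr5 stood at 1.961 to 7.61 CPM and 0.0574 to 0.405 CPM in the myeloid gate. Its plasmacytoid dendritic cells held 16.2 to 33.3 CPM of Tnfrsf13c, which overlapped plasma cells at 24.0 to 50.4 CPM. Type 2 conventional dendritic cells held 2.61 to 20.9 CPM of Tnfrsf13c, and natural killer cells, outside the myeloid gate, 6.58 to 22.2 CPM.

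Tnfrsf17 had a small signal in macrophages, with 61 UMIs in 57 of 1788 cells and 1.81 to 15.4 CPM per library (median 6.36), but 1 UMI in 2369 monocytes. These 57 cells, 53 of them with a single UMI, held plasma cell markers at 299 CPM against 306 CPM in the other macrophages. Their immunoglobulin share was 0.0388% against 0.0445%. The macrophage genes Mrc1 and Pf4 stood at 1887 against 878 CPM and 2105 against 1040 CPM. The microglial genes Tmem119 and P2ry12 were also higher in the 57 cells, at 93.7 against 49.9 CPM and 134 against 58.5 CPM. Mzb1, a plasma cell gene, was not detected in the 57 cells. It stood at 1.11 CPM in the other macrophages, a level at which its absence from 57 cells is uninformative. Ambient droplets of the libraries held Tnfrsf17 at 0 to 18.9 CPM, and their part in this signal was not tested.

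The order of the 4 main gates was tested per gene by sign flips over the 8 libraries, which can give no exact two-sided p below 0.0078125. Of 21 neighbouring pairs 12 differed, each in 8 of 8 libraries, with an adjusted p of 0.0137 in this exact permutation test. Neighbours were set by the mean levels of these same libraries. The test was not run over all genes, so this count has no background share and is a description. The order was mature B, developing B, plasma and myeloid for Tnfrsf13c and Tnfrsf13b. For Cd40 it was mature B, developing B, myeloid and plasma, in which developing B and myeloid cells did not differ beyond their spread (difference 0.40 ± 0.73, SD, exact permutation adjusted p = 0.236) unless WT acute colitis was left out (0.61, exact permutation adjusted p = 0.0252). For Tnfrsf17, Cxcr5 and both ligands only the top gate stood apart, with the remaining gates below 2 CPM on average. The exception was Tnfrsf17 in myeloid against mature B cells, whose difference of 0.04 (exact permutation adjusted p = 0.131) was called without APP food allergy (0.05, exact permutation adjusted p = 0.0252) and with no limit on markers of another lineage (0.09, exact permutation adjusted p = 0.0379).

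Setting immunoglobulin genes aside changed 3 of these pairs. Tnfrsf13b in plasma cells then lay above developing B cells, the developing minus plasma difference moving from 0.20 to -1.02 (exact permutation adjusted p = 0.0164). The Tnfrsf13c difference of the same gates fell to 0.47 (exact permutation adjusted p = 0.0746), and Cd40 in myeloid minus plasma cells fell to 0.13 (exact permutation adjusted p = 0.638).

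Most transcripts of both ligands lay in myeloid cells, but their levels differed between myeloid gates. Tnfsf13b (chr8:10006467-10039072, plus strand) was highest in macrophages, at 16.7 to 42.8 CPM (median 21.7), and neutrophils, at 6.53 to 39.2 CPM (median 23.8), 2 overlapping ranges. Monocytes held 1.03 to 7.12 CPM and CD8 T cells 2.93 to 6.25 CPM. Tnfsf13b in B lineage gates stayed at or below 1.76 CPM.

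Tnfsf13 (chr11:69682846-69685784, minus strand) was highest in monocytes, at 77.4 to 169 CPM (median 110), neutrophil precursors, at 61.3 to 116 CPM (median 89.5), and macrophages, at 48.9 to 138 CPM (median 64.7). These ranges overlapped. The neutrophil gate held only 2.66 to 13.02 CPM, below every library of the precursors. For Tnfsf13b the order by mean was the opposite, with 1.15 to 14.4 CPM in the precursors. Fibroblasts held 0 to 112 CPM, from 241 cells in all. In B lineage gates Tnfsf13 reached 2.43 CPM at most. The gene overlaps Tnfsf13os on the other strand and a read-through transcript with Tnfsf12 on its own, so reads near it may be divided between them.

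**Figure D3:**
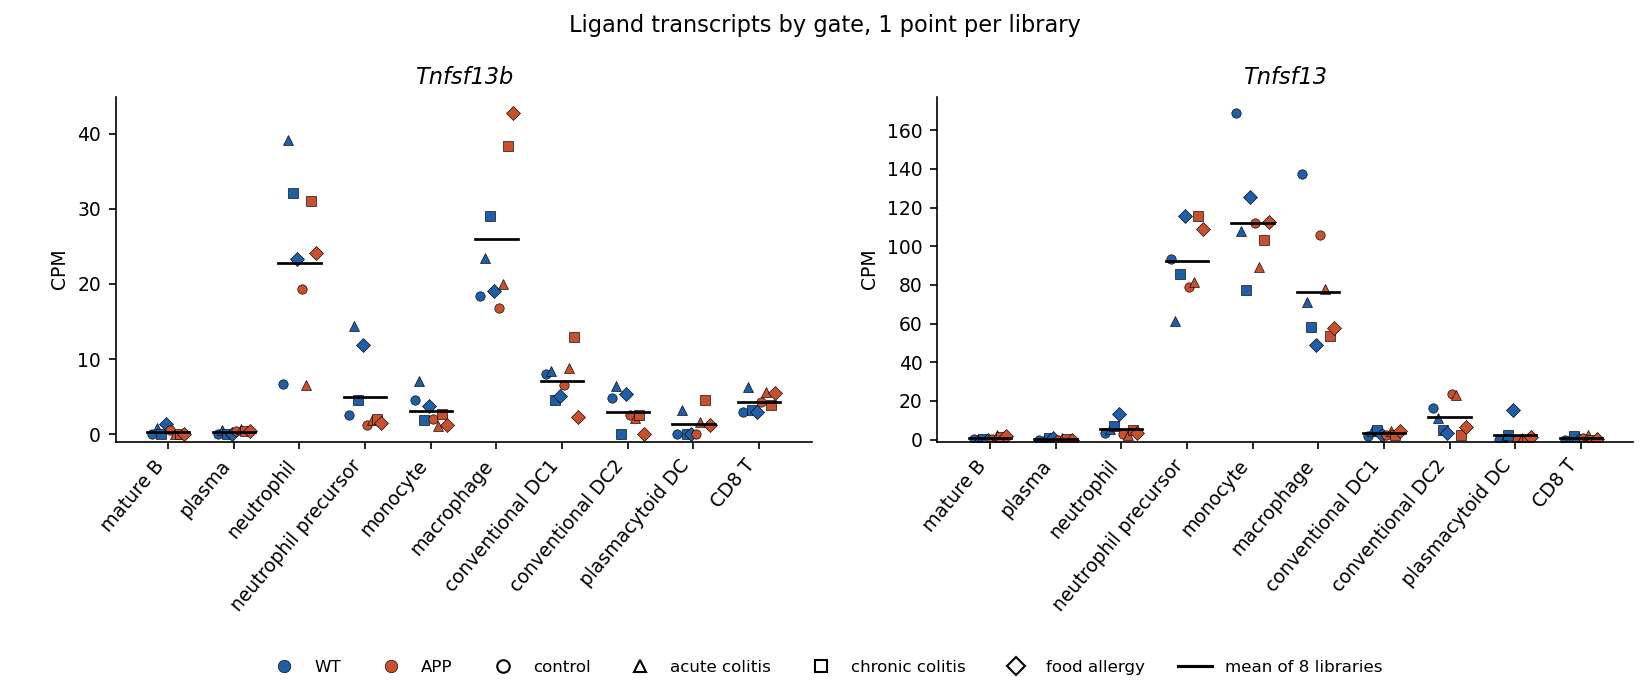
CPM (linear axis) of both ligand genes in 10 gates, with 1 point for each of the 8 libraries and a line at their mean. Tnfsf13b is highest in neutrophils and macrophages and Tnfsf13 in monocytes, neutrophil precursors and macrophages, while mature B and plasma cells lie near 0.

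Levels and cell numbers together set where the transcripts of each gene lay. Over all libraries mature B cells held 57.4% of Tnfrsf13c, 67.9% of Cxcr5 and 47.9% of Cd40 UMIs. Plasma cells held 70.6% of Tnfrsf17 UMIs, with 25.7% in cells that had no gate. Myeloid cells held the largest share of Tnfrsf13b, 34.6%, ahead of mature B cells at 20.8% and plasma cells at 9.97%, although its level was the lowest of the 4 main gates in them. Myeloid cells also held 75.3% of Tnfsf13b, of which neutrophils gave 43.8% of the total, and 82.9% of Tnfsf13, of which monocytes gave 32.9%. Shares differed between libraries. That of mature B cells in Tnfrsf13b ranged from 11.7 to 43.0%, and that of neutrophils in Tnfsf13b started at 13.3%.

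**Figure D4:**
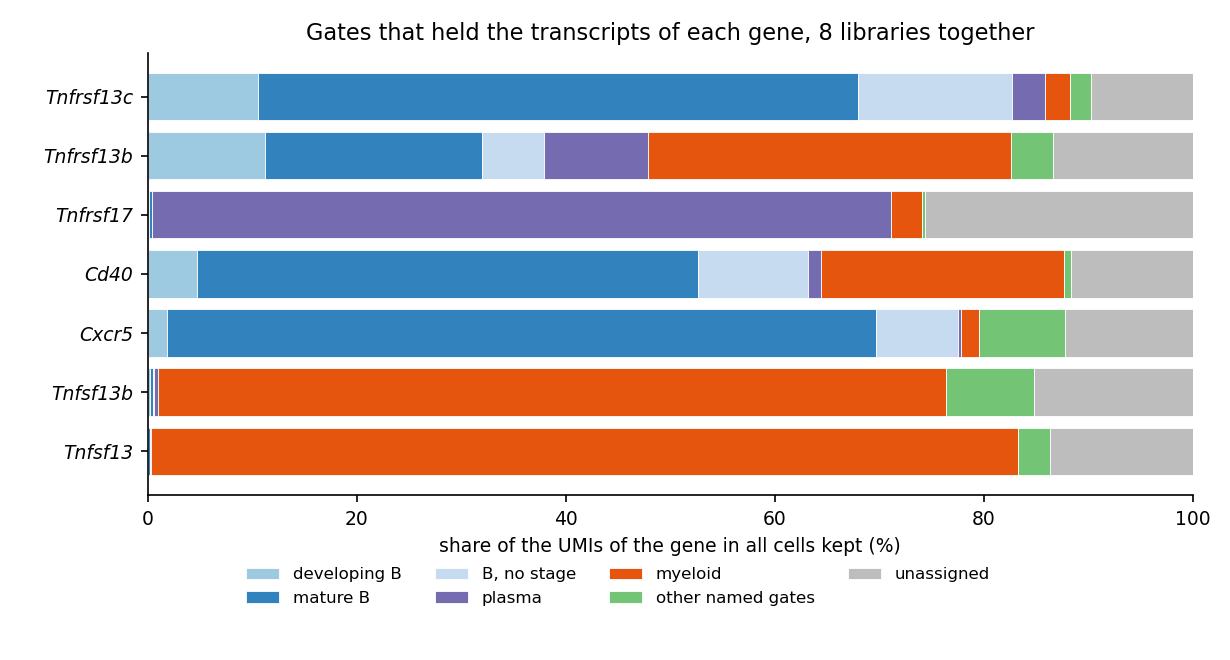
Share of the UMIs of each gene (percent of all cells kept, 8 libraries together) that lay in each gate. Mature B cells hold most Tnfrsf13c and Cxcr5, plasma cells most Tnfrsf17 and myeloid cells most of both ligands, whereas Tnfrsf13b is divided among many gates.

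The genes whose levels were most like each member over 159 gate and library sums were found by Pearson correlation, given as a description, since the sums of 1 library share its cells and depth. Ms4a1, the gene of CD20, was most like Tnfrsf13c (r = 0.91), Fcrl5 most like Cxcr5 (0.88) and H2-DMb2, of antigen presentation, most like Cd40 (0.82). Igha was most like Tnfrsf17 (0.95), followed by Ccr10, a receptor of IgA plasma cells (0.93). Serp1, of the secretory pathway, was most like Tnfrsf13b (0.81). Of the ligands, Tnfsf13b was most like Gm38843 (0.80), with the iron transporter gene Slc11a1 the third (0.77), and Tnfsf13 was most like Plod3 (0.86).

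A list of 31 genes around these receptors was set beside them: TRAF adaptors, both NF-kB branches, survival genes and partner ligands. From early to late developing cells 21 of 25 tested were higher and none lower, where 29.8% and 26.9% of all genes were, with a median log2 difference of 0.96 against 0.06 over all genes. Relb (2.46 ± 0.23) and Nfkb2 (2.31 ± 0.19), the subunits of alternative NF-kB, and the inhibitor Nfkbia (2.19 ± 0.10) changed most among them. The 4 that did not pass were Bcl2, Traf2, Bcl2l11 and Ikbkg.

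From developing to mature cells 19 of 27 rose and 4 fell, where 33.9% and 30.6% of all genes did, with a median of 0.90 against 0.05 over all genes. The anti-apoptotic genes Bcl2a1b (5.15) and Bcl2 (3.27) and the adaptor Traf1 (3.97) changed most. Bcl2a1b averaged 1.32 CPM in developing and 36.6 CPM in mature cells, and Traf1 1.73 and 23.8 CPM. Both of these genes passed the low-count filter through mature cells alone, so the filter set their direction, and both count among the 19. Il7r, the receptor of early B cell growth, fell by 3.25 and Bcl2l1, another anti-apoptotic gene, fell by 2.84, with Traf6 and Pim1 the other 2. All 4 alternative NF-kB genes rose in both steps.

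In plasma against mature cells 7 of 27 were higher and 13 lower with TMM factors, where 29.8% and 33.9% of all genes were, with a median of -0.33 against -0.11 over all genes. Il21r (-4.18) and the NF-kB subunit Rel (-3.12) were lower and the survival kinase Pim1 (2.77) higher. Il21r averaged only 2.34 CPM in plasma cells against 133 CPM in mature cells. With library size alone 1 was higher (Pim1, 0.996) and 24 were lower, where 6.04% of all genes tested were higher and 86.6% lower. Members of the list were chosen for these pathways and do not test them.

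The study's own comparison was between genotypes and treatments, and none of the 68 contrasts of the 7 genes that could be fitted passed in any gate. The model added genotype and treatment over 8 libraries with 3 residual degrees of freedom. Over all genes and these 16 contrasts edgeR called 62 of 163056 values, 0.038%, and in developing B cells it called 0.00992% of genes for genotype, 0.0694% for acute colitis and 0.0397% for either of the other treatments. Of the 68, 13 had an unadjusted p under 0.05, and the smallest adjusted p was 0.129. DESeq2 called 441 values over all genes but none of the 7.

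That smallest value belonged to Cd40 in mature B cells. It stood at 146 CPM in WT control and 131 CPM in APP control. The treated WT libraries stood at 212 CPM in acute colitis, 201 CPM in chronic colitis and 173 CPM in food allergy, and the treated APP libraries at 181, 217 and 181 CPM in the same order. Both controls thus lay below all 6 treated libraries. The log2 differences from control were 0.60 ± 0.13 in chronic colitis (edgeR adjusted p = 0.129), 0.56 ± 0.13 in acute colitis (edgeR adjusted p = 0.311) and 0.39 ± 0.13 in food allergy (edgeR adjusted p = 0.870), where 0.264%, 0.0203% and 0% of all genes were called. With no low-count filter the first 2 passed (edgeR adjusted p = 0.0152 and 0.0473).

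The hashtag groups of each library fell into 14 with low and 16 with high immediate-early gene levels in T cells, and every library held both, a division made after seeing the data. Cd40 in mature B cells of the high groups was 135 and 141 CPM in the controls and 175 to 233 CPM in the treated libraries. In the low groups with at least 50 mature B cells it was 176 CPM in WT control and 125 CPM in APP control. APP acute colitis then stood at 97.6 CPM, APP chronic colitis at 166 CPM and APP food allergy at 171 CPM, so acute colitis lay below the APP control and the other 2 above it. No treated WT library had enough cells in its low groups. Cd40 was higher in the high groups in 4 of 5 libraries with both, and Cxcr5 was higher in the low groups in 5 of 5. The part of this difference in the treatment values was not tested.

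The other members of mature B cells moved less. Tnfrsf13c was lowest in WT control (458 CPM) and highest in APP chronic colitis (760 CPM), with differences of 0.42 in acute colitis, 0.39 in chronic colitis and 0.25 for APP against WT, none passing (edgeR adjusted p = 0.650, 0.374 and 0.586), where 0.0406% of genes were called for genotype. Tnfrsf13b was also lowest in WT control, with 0.36 in chronic colitis and 0.38 in food allergy (edgeR adjusted p = 0.401 and 0.870). In WT control the low groups held 612 CPM of Tnfrsf13c and 234 CPM of Tnfrsf13b, and the high groups 383 and 153 CPM. Of 5 libraries with both, Tnfrsf13c was higher in the high groups in 3 and Tnfrsf13b in 2. The part of this division in the differences was not tested. Cxcr5 was highest in both food allergy libraries, at 93.3 and 92.1 CPM, followed by WT control at 87.2 CPM. This order did not hold within the hashtag groups. In APP food allergy the low groups held 124 CPM of Cxcr5, the highest of any low groups with enough cells. Its high groups held 58.2 CPM, the lowest of any high groups, among which WT control was highest at 89.7 CPM. The part of the division in the Cxcr5 values was not tested.

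**Figure D5:**
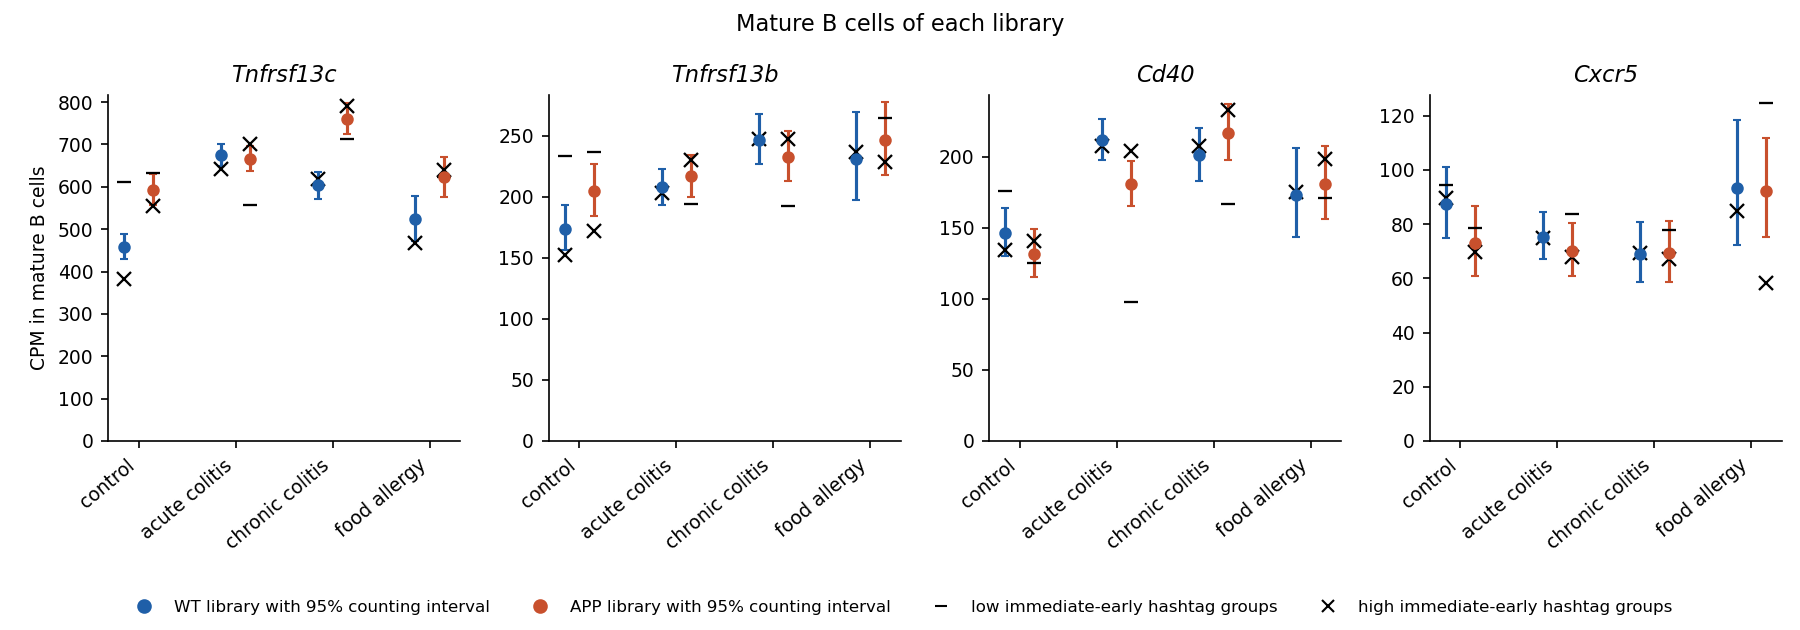
CPM of 4 receptor genes in the mature B cells of each library by treatment (points, with 95% counting intervals), and in the hashtag groups with low (dashes) or high (crosses) immediate-early levels. Cd40 is lowest in the 2 control libraries among the points, whereas the dash of APP acute colitis lies below both controls.

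In plasma cells Tnfrsf17 stood at 82.5 CPM in the WT control, 101 CPM in WT acute colitis, 77.8 CPM in WT chronic colitis and 72.8 CPM in WT food allergy, and at 87.7, 94.6, 102 and 111 CPM in the APP libraries in that order. The APP value was higher in 3 of 4 treatments, and the difference of 0.48 ± 0.17 did not pass (edgeR adjusted p = 0.479), where 0.179% of all genes were called.

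In the myeloid gate Tnfsf13 was lowest in the 2 acute colitis libraries, at 34.7 CPM in WT and 28.5 CPM in APP, against 47.0 to 76.3 CPM in the others. The difference from control was -0.88 ± 0.19 (edgeR adjusted p = 0.998, with 0% of all genes called). In monocytes the acute colitis values were 108 and 89.5 CPM, inside the range of the other libraries, and monocytes made up 2.46% and 2.19% of all cells there against 3.48 to 8.61% in the other libraries. The part of cell numbers in the difference was not tested. Tnfsf13b in the whole myeloid gate was highest in WT food allergy at 14.8 CPM, and in neutrophils in WT acute colitis at 39.2 CPM, whereas APP acute colitis had the lowest neutrophil value at 6.53 CPM. WT acute colitis had 177 neutrophils at a median of 2004 UMIs, and APP acute colitis 1309 at 12480 UMIs. The part of this depth in the values was not tested. No gene of the list of 31 passed for any genotype or treatment contrast in the 4 gates.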

How the data were processed

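Cells from 8 mouse brain libraries were measured by 10x 5′ single-cell RNA-seq with hashtag antibodies. The authors aligned reads to mm10 and deposited unfiltered UMI counts per gene and barcode. Their processing notes name Cell Ranger 6.1.2, whereas the matrix headers name Cell Ranger 4. No deposited column was left unmapped (0 not used).

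Cells were called by an order-of-magnitude UMI cutoff plus a Monte Carlo test against ambient droplets (at least 500 UMIs, 1000 simulations, false discovery rate 0.01), and cells under 200 genes or over 5% mitochondrial UMIs were removed. A gate needed 3 of 8 markers. No doublet caller was run. The 2218 cells with at least 4 markers of another lineage were left out, and 4668 cells with several hashtags were kept. Counts were summed per gate and library. Stages were compared with edgeR 4.0.16 (R 4.3.3; TMM, filterByExpr, quasi-likelihood test, Benjamini-Hochberg over all genes tested, calls at 0.05) with library as a block, and genotype and treatment with an additive model per gate. Gate order was tested by exact sign flips of log2(CPM + 10). Intervals (95%, Poisson) cover counting error only. DESeq2 1.42.0, other filters, other scalings, stricter and looser gates and left-out libraries were the alternatives. Scripts ran in Python 3.11.15 (numpy 2.4.6, scipy 1.17.1, pandas 2.3.3, matplotlib 3.10.9) and were tested on simulated data. Named genes were the 7 members, the 3 listed pathway genes with the largest called change per comparison, and the 3 genes most like each member, of which the first is given and others in part. Further genes were named after their values were seen. The members and lists were chosen with earlier results of these data known.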

Additional observations from a re-analysis of the deposited data

Results flagged for a closer look

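In developing B cells Tnfrsf13c was highest in APP acute colitis, at 202 CPM, against 94.4 to 138 CPM in the other 7 libraries. That library had the fewest developing B cells, 140. The gap to the nearest library was 0.599 of the whole range, above Dixon's 95% value of 0.526 for 8 libraries. In the myeloid gate Cd40 was highest in WT acute colitis, at 39.3 CPM against 5.88 to 20.8 CPM, with a gap of 0.553 of the range. Migratory dendritic cells, where Cd40 was highest by level, gave 146001 of the 8276969 myeloid UMIs of that library, and neutrophils gave 560994. The part of the mix of myeloid gates in this value was not tested. Of 13 gene and gate sets of 8 libraries tested in this way 2 passed, and chance passes about 1 in 20. Tnfrsf13b in plasma cells stood at 90.9 CPM in APP control and 117 CPM in WT control. All 3 treated WT libraries lay below their control and all 3 treated APP libraries above theirs, and the difference between these differences was not tested.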

How the results depend on the processing

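Each stage difference of a member, the order of the gates and the source shares were recomputed under up to 20 alternatives, and the genotype and treatment contrasts under 16. Tnfrsf13c, Cd40 and Cxcr5 kept their direction and call in every stage comparison that could be fitted. For Cd40 from early to late and for Cxcr5 throughout, the low-count filter set the direction, so these refits cannot support it. Of the other results, 3 reversed. Tnfrsf13b from early to late cells became -0.20 (edgeR adjusted p = 0.114) with cells called by the UMI cutoff alone, and Cd40 did not pass the low-count filter there, which left 1 of 3 members passing. Tnfrsf13b in plasma against mature cells became -1.15 with library size alone, and developing minus plasma became -1.02 without immunoglobulin genes. The cause of the first was not tested. In groups with low immediate-early levels alone 3105 genes were called from early to late, 3234 from developing to mature and 1740 in plasma against mature cells (5269, 6820 and 6462 with all groups), and 3075 from early to late in the high groups. Fewer cells and, in some fits, fewer libraries entered these. Members passing for genotype or treatment were 2 with no low-count filter and 0 to 1 over left-out libraries. Each fit with a library left out kept only 1 library of that treatment. Without APP acute colitis, the acute colitis difference of Tnfrsf17 in the myeloid gate was 4.33 and rested on WT acute colitis alone. Macrophages, the myeloid cells with most Tnfrsf17 UMIs, were 430 of 1230 myeloid cells in that library. They were 173 of 1314 in WT control and 194 of 1599 in APP control. The part of this mix in the difference was not tested. Values called over the 16 contrasts were 1268 with no filter, 441 with DESeq2, 35 with the UMI cutoff alone and 56 to 700 over left-out libraries, the highest without APP control (62 with all). The myeloid share of Tnfsf13 was 89.7% in cells with 1 hashtag (median 81.9%).

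Developing B and myeloid Cd40 differed without WT acute colitis (0.61, exact permutation adjusted p = 0.0252). Depth limited the low genes: the ligands in B cells and Tnfrsf17 outside plasma cells rested on few UMIs. With 1 library a group, genotype and treatment effects within a pair had no replicate.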
